A study of Mus musculus with 6 samples.

Results

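The 100 matrix rows described here had the highest level in the cluster annotated as Cck+ neurons relative to every other cluster of the postnatal suprachiasmatic nucleus (SCN). Raw UMIs were summed per matrix row over the annotated nuclei of PND10 and PND30 in each of 9 clusters and scaled to CPM, that is, to the same total of UMIs for each cluster, so that levels compare between clusters of unequal depth. Among the 3873 of 32285 rows with 50 CPM or more in Cck+ neurons, the 100 rows with the largest ratio of (CPM + 5) in Cck+ neurons over (CPM + 5) in the next highest cluster were taken. The members were thus chosen by their levels in these 9 clusters at PND10 and PND30. Levels of these clusters relative to each other are given below as a description without a test. The change from PND10 to PND30 in Avp+, Vip+ and extra-SCN neurons was tested, and so was its difference between them. Those tests used sums that had entered the rule, so their results on members are a description too. No table used here pairs the rows with gene names, so each member is called by its rank in that ratio, rank 1 being the largest, and the cluster name could not be checked against Cck itself or any other marker.

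The nuclei came from SCN tissue dissected from wild-type C57BL6/J mice at gestational day 17.5 (GD17.5) and postnatal days 2, 10 and 30 (PND2, PND10 and PND30). No group carried a transgene or a treatment. Each stage was a pool of males and females from several litters, so differences between animals within a stage were not measured. GD17.5 and PND2 each had 1 library, and PND10 and PND30 each had 2, for which preparation and sequencing were repeated. The study isolated nuclei in 6 batches and calls the paired libraries independent, but whether the second library of a stage drew on tissue of the same animals is not stated, so a p-value between these stages covers only the spread between libraries, which may be technical.

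The SCN of the hypothalamus is the central circadian pacemaker of mammals, and its neurons are usually sorted by the neuropeptides they make. Vasopressin (Avp) is typical of the dorsal shell, vasoactive intestinal peptide (Vip) of the ventral core that receives retinal input, and neuromedin S (Nms) of a broad set of SCN neurons. Cholecystokinin (Cck) is a peptide transmitter of a further set. Neurons of the nucleus are born before birth, and their synapses and peptide levels continue to change over the first postnatal weeks.

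All 1848 Cck+ nuclei were placed in a library. There were 0 at GD17.5, 0 at PND2, 1 in PND10 replicate 1, 20 in PND10 replicate 2, 84 in PND30 replicate 1 and 1743 in PND30 replicate 2. PND30 replicate 2 thus supplied nearly all of the nuclei that chose the members, and it also held 657 of the Nms+ nuclei against 7 in PND30 replicate 1. Cck+ nuclei had a median of 3119 UMIs in PND30 replicate 2 and 13104.5 in PND30 replicate 1. They made up 31.9% of the placed nuclei of PND30 replicate 2 and 10.9% of those of PND30 replicate 1. Placed nuclei summed to between 10921890 and 31389145 UMIs per library, and a pair of libraries shared 0 to 9 barcodes among annotated nuclei. Levels are given below only where a library held at least 20 nuclei of a cluster.

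The specificity of the members was graded and mostly small. The ratio was 5.17 for rank 1, 4.09 for rank 2, 2.43 for rank 10 and 1.62 at the median, and 31 members had a ratio under 1.5. Only 22 of the eligible rows reached a ratio of 2 and 5 reached 3. The limit at rank 100 was not a gap, because rank 100 had a ratio of 1.383 and the first row left out had 1.382. Rank 100 stood at 41.3, 56.7 and 67.2 CPM in Cck+ neurons of PND10 replicate 2, PND30 replicate 1 and PND30 replicate 2, and the row left out at 82.7, 219 and 228 CPM. Ranks 1, 2, 99 and 100 are matrix rows 17002, 6651, 14244 and 21719. Pooled levels of the members in Cck+ neurons ran from 50.1 to 3690 CPM with a median of 129, and together they held 3.1% of the UMIs of Cck+ nuclei. The 5 most abundant members made up 10086 of their summed 30980 CPM. The same rule applied to other clusters gave a top ratio of 3.78 and a median of 1.2 in Avp+ neurons, 7.43 and 1.55 in Vip+ neurons, 4.22 and 1.78 in Nms+ neurons, and 29.9 and 8.5 in mature astrocytes. The median ratio of the Cck+ members thus lay between those of Avp+ and Nms+ neurons and well below that of the astrocytes.

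The next highest cluster was another neuron cluster for most members. It was Avp+ neurons for 41 members, Nms+ neurons for 22, Vip+ neurons for 10 and extra-SCN neurons for 5. For the other members it was a glial cluster, with mature astrocytes next for 12, mature oligodendrocytes for 4, NG2 cells/OPCs for 3 and microglia for 3. The median member in Avp+ neurons stood at 52.6 and 66.4 CPM in the PND10 libraries and 69.2 and 58.9 CPM in the PND30 libraries against 152 and 128 CPM in Cck+ neurons of PND30 replicates 1 and 2. In Nms+ neurons of PND30 replicate 2 the median was 49.4 CPM, in extra-SCN neurons 33.3 to 41.6 CPM over 4 libraries, and in mature astrocytes 28.8 to 36.3 CPM. Leaving the glial clusters out of the rule kept 68 of the 100 members, a setting added after the data were seen.

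**Figure D1:**
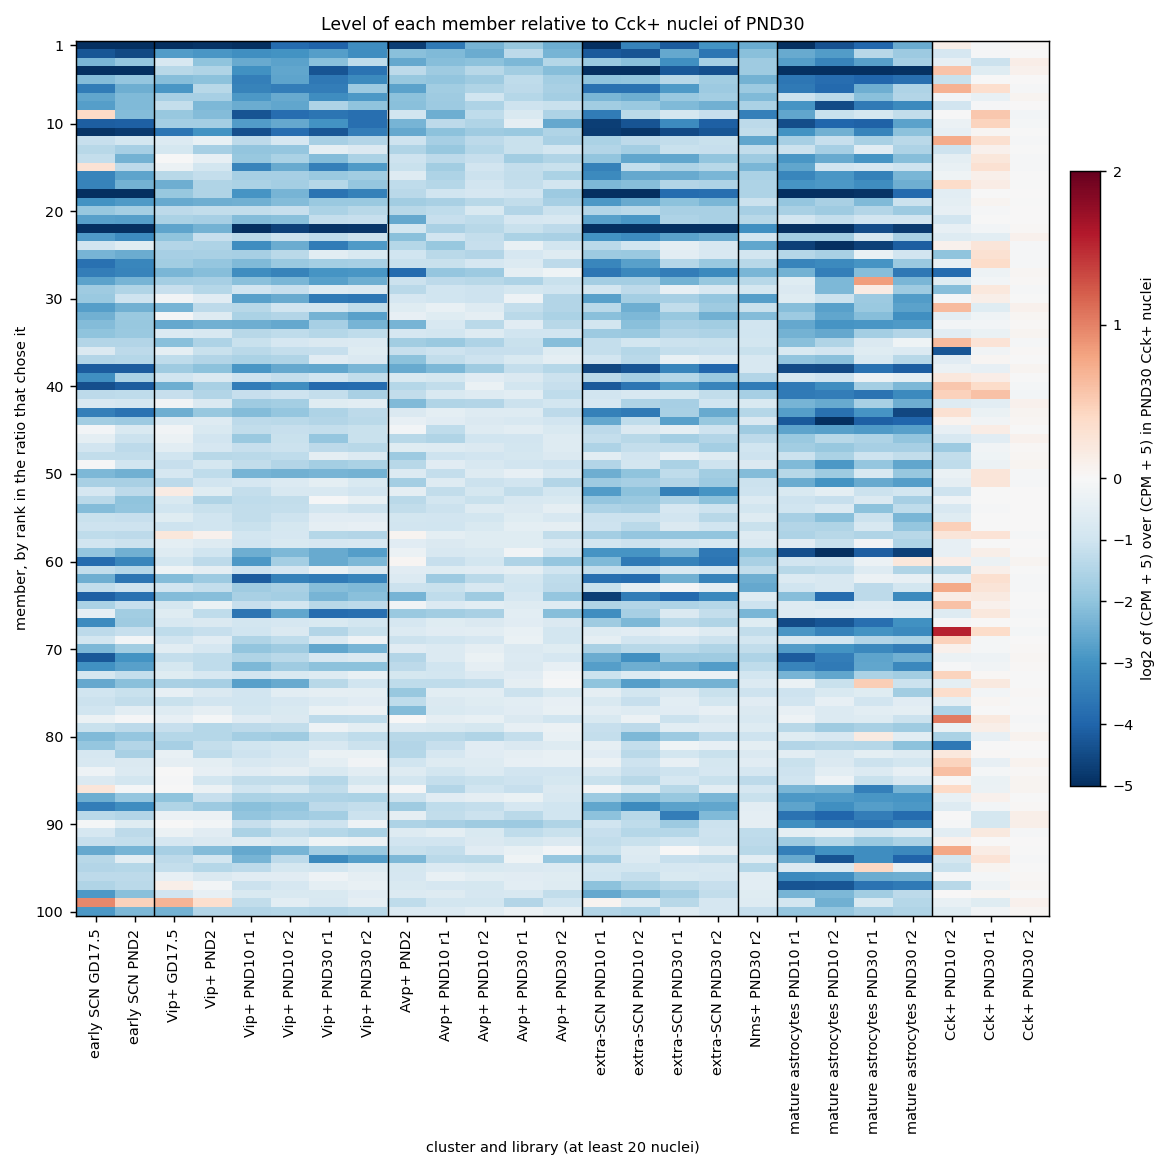
Each row is a member in order of rank and each column a cluster in 1 library (r1 and r2, replicates 1 and 2), coloured by the log2 of (CPM + 5) over (CPM + 5) in PND30 Cck+ nuclei, on a colour scale that reaches farther below 0 than above it and is cut off at both ends. Nearly all columns other than Cck+ are blue, and the Vip+ columns of GD17.5 and PND2 are paler than those of early SCN neurons, with medians of 65.3 and 62 CPM against 35.9 and 33.9 CPM.

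The 10 members with the largest ratios did not share 1 pattern over the stages. Rank 1 was close to absent before PND10. In Cck+ neurons it stood at 289 CPM in PND10 replicate 2 (21 UMIs, exact Poisson 95% interval 179 to 442), 248 CPM in PND30 replicate 1 (220 to 278) and 270 CPM in PND30 replicate 2 (257 to 283). In early SCN neurons it stood at 0.924 CPM at GD17.5 and 1.6 CPM at PND2, and in Vip+ neurons of those stages at 2.36 and 3.97 CPM. These intervals, like all others here, cover counting error only.

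At PND30 rank 1 was also found at a low level in other neuron clusters and in mature astrocytes, and its level outside Cck+ neurons differed between libraries. In PND10 replicates 1 and 2 it stood at 18.3 and 49 CPM in Avp+, 2.48 and 13.9 CPM in Vip+, and 1.2 and 21.9 CPM in extra-SCN neurons. In PND30 replicate 1 it stood at 67.4 CPM in Avp+, 11.9 in Vip+ and 10 in extra-SCN neurons. In PND30 replicate 2 it stood at 45.3 CPM in Avp+, 43.9 in Nms+, 26.9 in Vip+ and 29.3 in extra-SCN neurons, and at 44 CPM in mature astrocytes, which are not neurons. With each nucleus thinned to 1500 UMIs, 23.3% of Cck+ nuclei of PND30 replicate 2 had a UMI of rank 1 (370 of 1587, Clopper-Pearson 95% interval 21.3% to 25.5%) against 6.08% of mature astrocytes (3.64% to 9.44%) and 5.59% of Avp+ nuclei (4.34% to 7.07%). Without thinning the shares were 36% in Cck+ nuclei at a median of 3119 UMIs and 9.49% in mature astrocytes at a median of 2201. No cell type is known to lack an unnamed gene, so the astrocytes stand in as a background, and shares near theirs cannot be told from free RNA. In PND30 replicate 1 the thinned shares were 19.5% of Cck+ nuclei (16 of 82, 11.6% to 29.7%) and 3.85% of mature astrocytes (3 of 78, 0.8% to 10.8%). At GD17.5 6 of 3971 early SCN nuclei, or 0.151%, had a UMI of rank 1.

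Rank 2 stood at 110, 194 and 205 CPM in Cck+ neurons of PND10 replicate 2, PND30 replicate 1 and PND30 replicate 2. It was at 5.74 and 4.23 CPM in early SCN neurons of GD17.5 and PND2, at 19.5 to 26.2 CPM in all 6 Vip+ libraries, and at 32.5 to 78.4 CPM in Avp+ neurons. Its level in mature astrocytes of PND30, 74.1 and 53.5 CPM in replicates 1 and 2, stood beside 78.4 and 36.5 CPM in Avp+ neurons of the same libraries. Rank 3 differed between the PND30 libraries, with 24.4 CPM in Cck+ neurons of PND30 replicate 1 (28 UMIs, 16.2 to 35.3) and 62.5 CPM in replicate 2 (56.5 to 69.1), while Vip+ neurons of GD17.5 had 30.7 CPM.

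Rank 4 was present early, but in Vip+ and Avp+ nuclei rather than in early SCN neurons. Cck+ neurons had 510 CPM in PND10 replicate 2 (359 to 703), 221 CPM in PND30 replicate 1 (194 to 249) and 365 CPM in replicate 2 (351 to 381). Early SCN neurons had 1.96 CPM at GD17.5 and 4.54 CPM at PND2, Vip+ neurons of the same libraries 127 and 116 CPM, and the 46 Avp+ nuclei of PND2 137 CPM. Vip+ neurons were lower afterwards, at 37.1 and 52.8 CPM in the PND10 and 12.5 and 22.2 CPM in the PND30 libraries. Rank 10 had the same order of clusters, with 9.01 and 9.28 CPM in early SCN neurons, 70 and 69.6 CPM in Vip+ neurons of GD17.5 and PND2, and 193, 328 and 223 CPM in the 3 Cck+ libraries.

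Ranks 5, 7 and 8 were nearer to their Cck+ level in early SCN neurons than ranks 1, 2, 4 and 10. Rank 5 had 57 and 68.8 CPM in early SCN neurons against 124, 275 and 277 CPM in Cck+ neurons, but 12.8 to 18.2 CPM in mature astrocytes. Rank 7 had 58.9 and 79 CPM in early SCN neurons, 344, 293 and 400 CPM in Cck+ neurons, and 86.9 to 182 CPM in mature astrocytes, its next cluster. Rank 8 had 40.2 and 61.1 CPM in early SCN neurons and 152, 289 and 300 CPM in Cck+ neurons. Rank 6 had 10.3 and 27.3 CPM in early SCN neurons and 276, 214 and 161 CPM in Cck+ neurons. Rank 9 was the exception among the 10, because it was as high at GD17.5 as it was later in Cck+ neurons, with 149 CPM in early SCN neurons of GD17.5 and 21.1 CPM at PND2 against 110, 165 and 102 CPM in Cck+ neurons. It was higher still in immature astrocytes/ependymal cells of GD17.5, at 599 CPM, and at 14.7 CPM there at PND2.

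**Figure D2:**
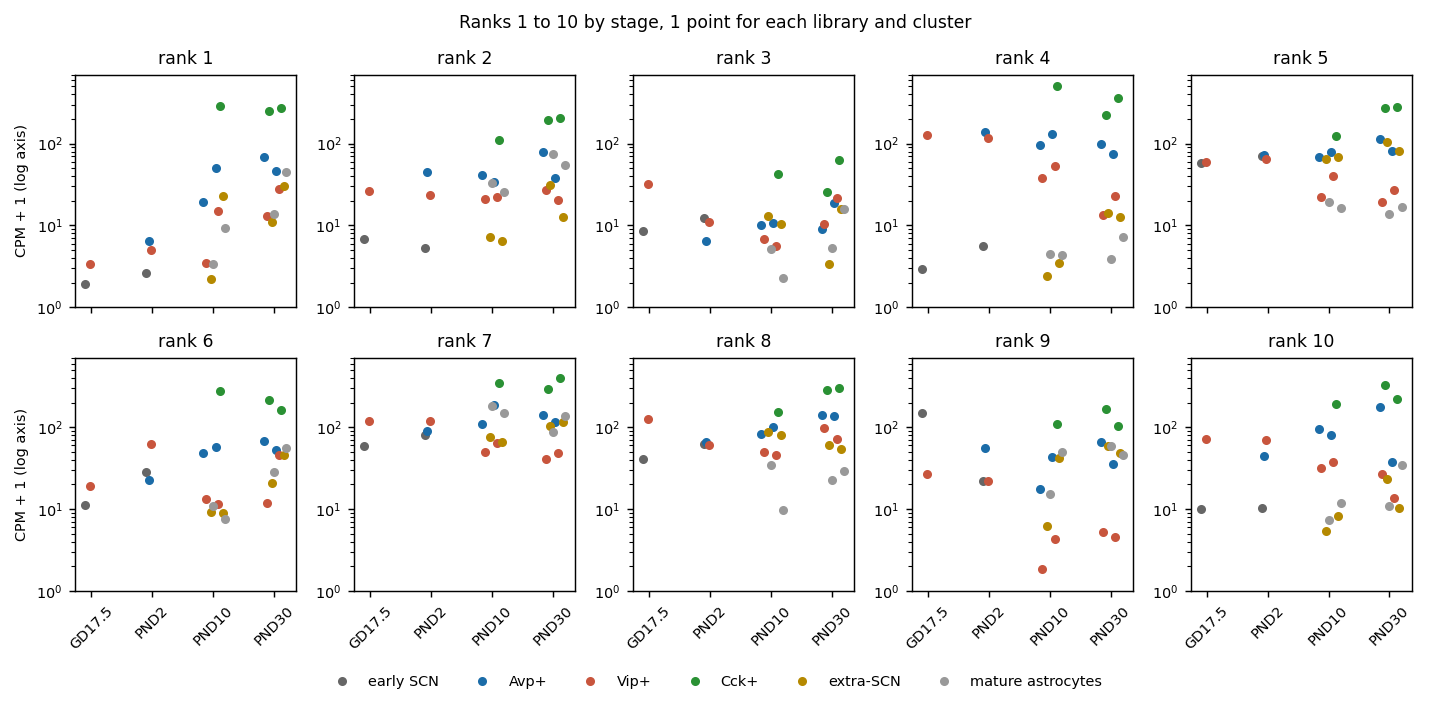
CPM + 1 (log axis) of ranks 1 to 10 by stage, with 1 point for each library that held at least 20 nuclei of a drawn cluster, coloured by cluster. Only early SCN, Avp+, Vip+, Cck+ and extra-SCN neurons and mature astrocytes are drawn. Among these, Cck+ neurons are the highest point at PND10 and PND30 in each panel. Early SCN neurons are the lowest point at GD17.5 and PND2 for ranks 1, 2, 4 and 10, and rank 9 starts at 149 CPM in early SCN neurons at GD17.5.

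In early SCN neurons, the cluster that held most neurons at GD17.5 and PND2 and that the rule did not use, most members were low. The median member stood at 35.9 CPM in the 4048 nuclei of GD17.5 and 33.9 CPM in the 3315 nuclei of PND2, against 98 and 94.8 CPM for all eligible rows. At GD17.5 36 of the 100 members reached 50 CPM and at PND2 also 36, whereas 82.2% and 81.7% of eligible rows did. Relative to its own level in PND30 Cck+ neurons the median member was at 27.8% at GD17.5 and 28.6% at PND2, and the median eligible row at 95.2% and 91.7%. Only 4 members at GD17.5 and 1 at PND2 were at or above their PND30 Cck+ level, against 45.4% and 41% of eligible rows. Members were chosen for a high level in Cck+ neurons and eligible rows were not, which lowers every such share for members by itself. With 1 library a stage no test was possible.

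In early SCN neurons of both libraries 15 members were under 10 CPM, as were 0.878% of eligible rows. The 3 members highest in early SCN neurons were also among the most abundant in Cck+ neurons. Rank 70 had 774 CPM at GD17.5 and 1093 CPM at PND2 against 3448 and 3729 CPM in the PND30 Cck+ libraries, rank 63 had 853 and 980 against 2434 and 1949 CPM, and rank 12 had 800 and 942 against 2193 and 1683 CPM. Rank 99 was the 1 member above its PND30 Cck+ level in early SCN neurons of both libraries, with 147 and 103 CPM against 47.1 and 78.4 CPM in Cck+ neurons of PND30.

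Between the early stages most members at 50 CPM or more in early SCN neurons stayed within 2-fold. The share that passed it was larger than over all rows at that level, on small counts. Of the 42 members at 50 CPM or more in early SCN neurons of either library, 4 were over 2-fold lower at PND2 than at GD17.5 and 2 were over 2-fold higher, where 2.48% and 1.93% of 4202 rows at that level were. The median log2 difference of these members was -0.0036, and -0.07 over all rows. The most distant were rank 9, from 149 CPM (144 to 154) at GD17.5 to 21.1 CPM (19.1 to 23.2) at PND2, rank 15, from 154 to 48.1 CPM, and rank 66, from 144 to 55.1 CPM. Ranks 9 and 15 lie on neighbouring matrix rows. In the other direction rank 39 went from 39.5 to 120 CPM and rank 67 from 106 to 277 CPM, and rank 71, under 50 CPM in both, from 6.85 to 23.7 CPM. The counting intervals of each of these pairs did not overlap, but a difference between 1 library and 1 library has no replicate check.

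The members were nearer to their later level in Vip+ nuclei of the early stages than in early SCN neurons of the same libraries. In the 236 Vip+ nuclei of GD17.5 and the 1262 of PND2 the median member stood at 65.3 and 62 CPM, and 59 members reached 50 CPM in each, against 85.6% and 85.3% of eligible rows. The median member was at 45.5% and 41.7% of its PND30 Cck+ level, and 4 and 2 members were at or above it, against 49.4% and 42.1% of eligible rows. Over all 100 members, 37 were over 2-fold higher in Vip+ than in early SCN neurons at GD17.5 and 33 at PND2, 29 of them at both, where 5.4% and 4.31% of eligible rows were. Over 2-fold lower were 2 members at GD17.5 and 0 at PND2, where 2.69% and 1.99% of eligible rows were. Neither the early nuclei nor early SCN neurons entered the rule. Vip+ and early SCN nuclei of a stage come from the same library, and with 1 library a stage the count has no replicate check beyond the 2 stages.

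The largest of these differences were in ranks 4, 18 and 22, of which 18 and 22 are named here after their values were seen. Rank 18 had 4.04 and 10.1 CPM in early SCN neurons of GD17.5 and PND2 and 160 and 214 CPM in Vip+ neurons, and rank 22 had 4 and 6.7 against 151 and 181 CPM. Ranks 4 and 18 lie on neighbouring matrix rows. All 3 were lower in Vip+ neurons at the later stages, with rank 22 at 13.2 to 32.8 CPM in the 4 libraries of PND10 and PND30, while Cck+ neurons of PND30 had 874 and 977 CPM and Avp+ neurons 307 to 446 CPM. Rank 22 was also at 475 CPM in the pooled mature oligodendrocytes, its next cluster. The median fold of (CPM + 5), Vip+ over early SCN neurons, was 1.53 at GD17.5 and 1.43 at PND2 over members, and 1.04 and 1.02 over all eligible rows.

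**Figure D3:**
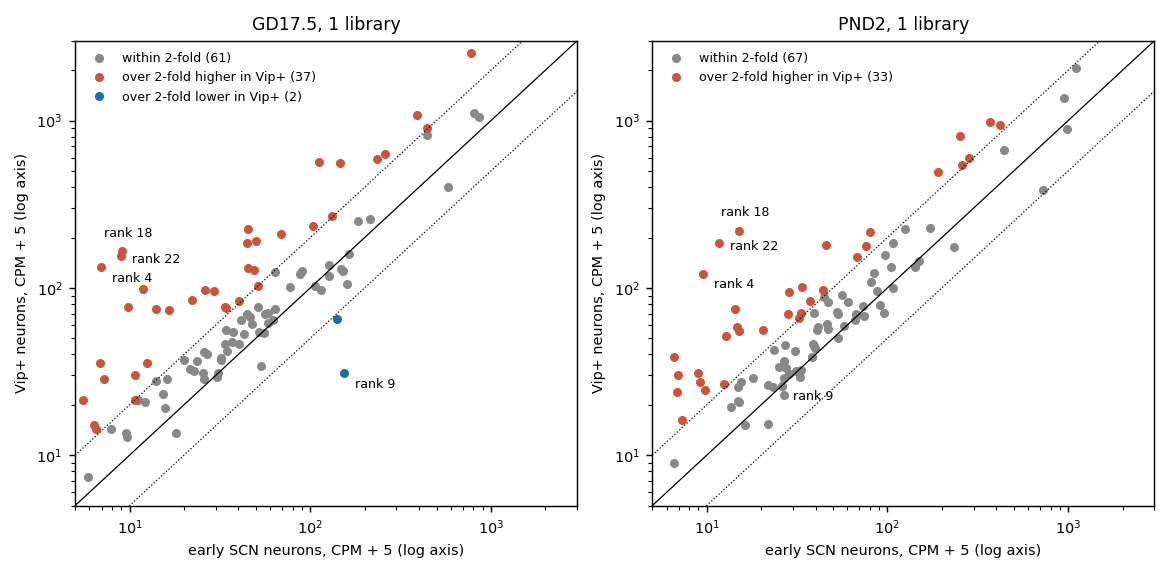
CPM + 5 (log axes) of the 100 members in Vip+ neurons against early SCN neurons of GD17.5 and of PND2, 1 library each, with the line of equality and dotted lines at 2-fold. Red points, 37 at GD17.5 and 33 at PND2, are over 2-fold higher in Vip+ neurons, and ranks 4, 18 and 22 lie farthest from the line.

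Within Vip+ neurons both early libraries were above all 4 later ones for 45 of the 100 members and below all 4 for 6, where 20.4% and 18% of eligible rows were. The median member went from 65.3 and 62 CPM to 35.9 and 39.7 CPM in the PND10 libraries and 41.1 and 46.1 CPM in the PND30 libraries. The rule held down the level of the members in Vip+ neurons of PND10 and PND30, so a lower level there than earlier is in part what the rule selected, and the count is a description. In Avp+ neurons the median member stood at 49.4 CPM in the 46 nuclei of PND2 and at 52.6 to 69.2 CPM later.

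Each PND30 library, read alone, had most members highest in Cck+ nuclei. In replicate 1, where 4 other clusters had at least 20 nuclei, 94 members were highest in Cck+ nuclei, and in replicate 2, with 8 other clusters, 91 were. Of all eligible rows 24.4% and 11.2% were highest there. In both libraries 87 members were. In PND10 replicate 2 the 20 Cck+ nuclei were the highest cluster for 79 members, against 22% of eligible rows. These libraries were part of the sums that chose the members. The median ratio within a library was 1.5 in PND30 replicate 1, 1.53 in replicate 2 and 1.53 in PND10 replicate 2. The lowest ratios within a PND30 library were 0.505 for rank 28 in replicate 1 and 0.657 for rank 83 in replicate 2, both named after their values were seen.

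The rule was then applied to 1 PND30 library and read in the other, which the choice did not use. Of 100 rows chosen in replicate 2, 91 had a ratio above 1 in replicate 1, against 24.1% of the 3878 rows eligible there, and the median ratio was 1.59 where chosen and 1.49 where read. Of 100 rows chosen in the 84 nuclei of replicate 1, 74 had a ratio above 1 in replicate 2, against 11% of the 3871 eligible rows, with a median of 1.73 where chosen and 1.37 where read. Replicate 1 held 7 Nms+ nuclei and 4 other clusters of at least 20 nuclei against 8 in replicate 2, so the 2 readings are not like for like. Lists chosen in replicates 2 and 1 held 68 and 49 of the 100 members. The annotation that names the Cck+ nuclei was made by the authors on all libraries together, so the libraries are not independent in that respect.

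The median log2 difference, replicate 2 minus replicate 1, was 0.015 over members and -0.046 over eligible rows. Over 2-fold higher in replicate 2 were 2 members, ranks 3 and 89, and over 2-fold lower were 0, where 1.37% and 0.232% of eligible rows were. With nuclei of both libraries thinned to 1500 UMIs, 6 members differed over 2-fold. The share of eligible rows that did so after thinning is not given, so this count is not read as a result about the members. Rank 89 had 50.6 CPM (38.4 to 65.4) in replicate 1 and 107 CPM (98.8 to 115) in replicate 2, and rank 90 had 28.8 CPM (19.8 to 40.4) and 62.1 CPM (56 to 68.6). In the other direction rank 41 had 90.7 and 53 CPM, rank 9 165 and 102 CPM, and rank 10 328 and 223 CPM. The intervals of each of these pairs did not overlap.

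**Figure D4:**
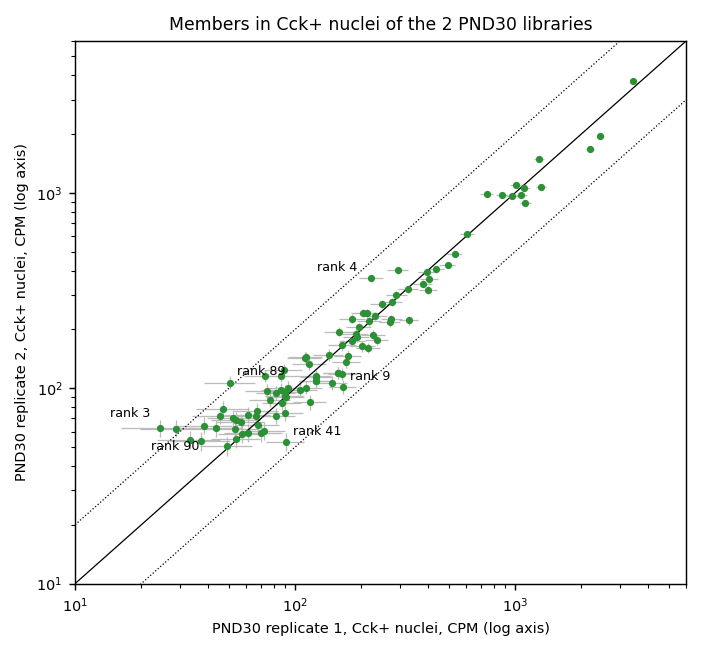
CPM (log axes) of the 100 members in Cck+ nuclei of PND30 replicate 1 and replicate 2, with exact Poisson 95% intervals in grey, the line of equality and dotted lines at 2-fold. The points follow the line, the highest at 3448 and 3729 CPM, and ranks 3 and 89 lie above the upper dotted line.

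Per nucleus, the members together took a larger share of UMIs in Cck+ nuclei than in most others. The rule chose them for high levels in these Cck+ nuclei relative to other clusters of PND10 and PND30, so that contrast is a description. With nuclei thinned to 1500 UMIs, members took a median of 3.2% of UMIs in the 82 Cck+ nuclei of PND30 replicate 1 and 3.07% in the 1587 of replicate 2, whose central 90% ran from 2.07% to 4.27% and from 1.87% to 4.25%. Without thinning the medians were 3.23% and 3.03%. The medians were 1.4% to 1.73% in Avp+ nuclei of PND10 and PND30, 1.2% in Nms+ nuclei, 0.8% to 1.07% in extra-SCN nuclei and 0.633% to 0.733% in mature astrocytes. Early SCN neurons had 0.8% at GD17.5 and 0.867% at PND2, and Vip+ nuclei 1.6% and 1.4% there against 0.867% to 1% later. The upper quartile of Avp+ nuclei, 2.07% in PND10 replicate 2 and 2.13% in PND30 replicate 1, reached the central 90% of Cck+ nuclei.

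Few early nuclei reached the level of a typical Cck+ nucleus. At or above the PND30 Cck+ median of 3.07% were 1 of 3971 early SCN nuclei at GD17.5 and 2 of 3278 at PND2. Among Vip+ nuclei 2 of 236 at GD17.5 (0.847%, 0.103% to 3.03%) and 50 of 1255 at PND2 (3.98%, 2.97% to 5.22%) were. Among Avp+ nuclei 63 of 1487 in PND10 replicate 2 (4.24%, 3.27% to 5.39%), 4 of 342 in PND10 replicate 1, 6 of 348 in PND30 replicate 1 and 10 of 1162 in PND30 replicate 2 were. Among mature astrocytes 0 of 596 in PND10 replicate 2 were, and among Nms+ nuclei 0 of 584 in PND30 replicate 2. Without the 5 most abundant members the Cck+ median was 2.07%, and 36 of 1255 Vip+ nuclei of PND2 and 63 of 1487 Avp+ nuclei of PND10 replicate 2 reached it.

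**Figure D5:**
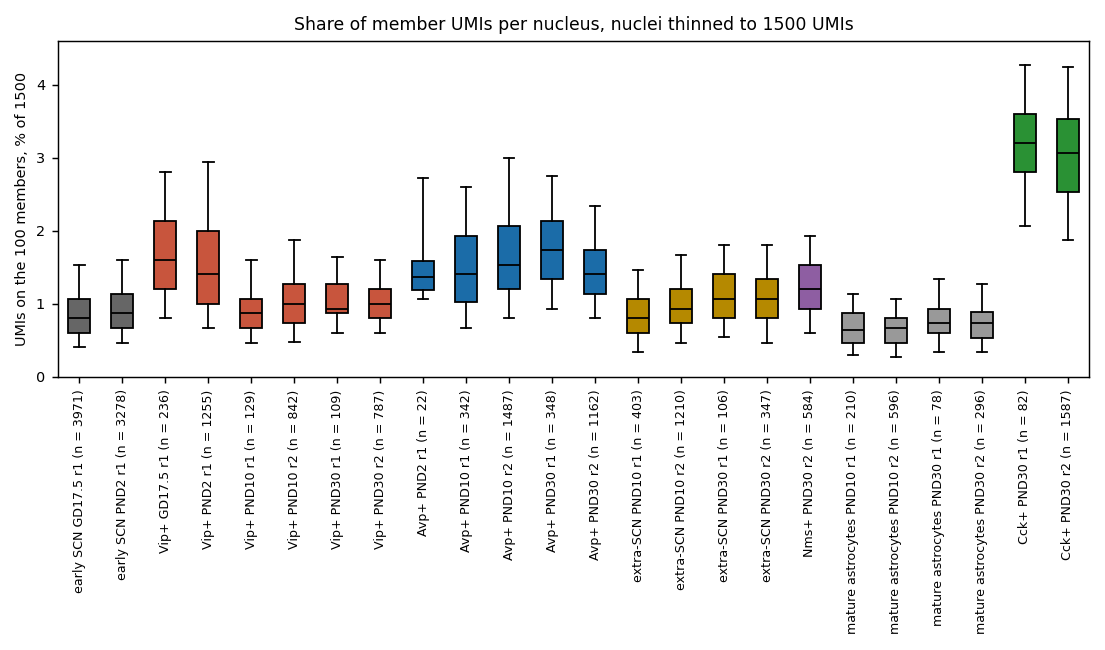
UMIs on the 100 members as a percentage of the 1500 UMIs of each thinned nucleus, by cluster and library, with n nuclei. Boxes span the quartiles with the median as a line, and whiskers span the central 90% of nuclei. Boxes of Cck+ nuclei, with medians of 3.2% and 3.07%, do not overlap any other box, but some whiskers of Avp+ and Vip+ nuclei reach them. The rule chose the members for high levels in these Cck+ nuclei.

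Between PND10 and PND30 the members could be tested in Avp+, Vip+ and extra-SCN neurons, with UMIs summed per library (n = 2 against 2), the quasi-likelihood test of edgeR and p-values adjusted after Benjamini and Hochberg over all rows tested. Cck+ nuclei come almost only from PND30, so the rule can lean towards rows that are higher at PND30. The rule also used the pooled sums of these clusters. The counts and p-values of members are therefore a description, set beside the share of all rows called. The rows tested in each cluster include many that were not eligible for the rule, and these shares were not matched for level. In Avp+ neurons 1 member of 100 tested was higher at PND30 and 0 were lower, where 0.0342% and 0.0548% of 14610 rows were. That member was rank 27, at 13.8 and 15.2 CPM at PND10 and 46.9 and 57 CPM at PND30, a log2 change of 1.88 (SE 0.17, adjusted p = 0.0477 by edgeR). At an unadjusted p under 0.05 18 members were higher and 8 lower in Avp+ neurons, where 7.26% and 6.41% of all rows were. DESeq2 called 2 members higher and 1 lower. The other 2 members with the largest log2 changes upward were rank 74 at 1.20 and rank 80 at 0.93, and downward they were rank 32 at -0.91, rank 31 at -0.89 and rank 60 at -0.71, all with adjusted p over 0.05. With the replicate number as a block edgeR called 8 members higher and 2 lower, among them rank 74 (adjusted p = 0.00338 by edgeR), rank 32 (adjusted p = 0.00989 by edgeR) and rank 31 (adjusted p = 0.0146 by edgeR). DESeq2 called ranks 74 and 32 as well (adjusted p = 0.0115 each). Without PND30 replicate 2 rank 80 stood at 0.44. With 1 library left out in turn, the log2 change of rank 27 ranged from 1.78 to 2.00. Its call was lost without either PND10 library.

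In Vip+ neurons the members moved in both directions. Of 99 members tested 15 were higher at PND30 and 11 lower, where 2.75% and 3.87% of 12484 rows were. Rank 74 had 4.95 and 6.28 CPM at PND10 and 20.3 and 28.1 CPM at PND30 (log2 change 2.02, SE 0.32, adjusted p = 0.00249 by edgeR), and rank 13 had 26.4 and 27 against 81.1 and 68.3 CPM (1.43, SE 0.2, adjusted p = 0.000895 by edgeR). Rank 3 had 5.78 and 4.65 CPM against 9.54 and 20.7 CPM (1.65, adjusted p = 0.0301 by edgeR). Rank 4 fell from 37.1 and 52.8 CPM to 12.5 and 22.2 CPM (log2 change -1.38, SE 0.27, adjusted p = 0.00876 by edgeR). Rank 94 fell from 61.9 and 131 CPM to 31.6 and 44.4 CPM (-1.42, adjusted p = 0.00981 by edgeR), and rank 30 from 11.6 and 13.9 CPM to 4.17 and 3.84 CPM (-1.75, adjusted p = 0.0139 by edgeR). In each of these members the 2 stages did not overlap. DESeq2 also called ranks 74, 13 and 4 (adjusted p = 0.00626, 0.000145 and 0.0146 by DESeq2). It did not call rank 94 (adjusted p = 0.226 by DESeq2) and gave no adjusted p for ranks 3 and 30. With 1 library left out in turn, rank 94 ranged from -1.80 to -0.70, the latter without PND10 replicate 2, and rank 3 from 0.89, without PND30 replicate 2, to 2.02. All 15 and 11 calls were lost when either PND10 library was left out, and DESeq2 called 9 higher and 7 lower.

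In extra-SCN neurons 0 of 99 members were called in either direction by edgeR, where 0% of 13834 rows were higher and 0.00723% lower. At an unadjusted p under 0.05 30 members were higher and 4 lower, where 6.84% and 8.46% of all rows were. DESeq2 called 10 members higher and 0 lower. With PND10 replicate 1 or 2 left out edgeR called 15 and 27 members higher, and 278 and 495 of all rows. The median log2 change was 0.27 over members and -0.01 over all rows. The 3 largest changes upward were in ranks 38, 4 and 43, with rank 4 at 1.4 and 2.46 CPM at PND10 and 13.4 and 11.7 CPM at PND30 (log2 change 2.62, SE 0.44, adjusted p = 0.0959 by edgeR). Downward they were rank 89 at -1.40, rank 60 at -1.03 and rank 99 at -0.94. None of these 3 held its size with 1 library left out, with rank 89 between -2.68 (without PND30 replicate 2) and -0.68 (without PND30 replicate 1), rank 60 between -1.69 (without PND10 replicate 2) and 0.070 (without PND10 replicate 1), and rank 99 between -1.25 (without PND30 replicate 2) and -0.57 (without PND10 replicate 1). Upward, rank 38 ranged from 1.82 to 4.52, the latter without PND10 replicate 2. The members held 0.87% and 0.989% of UMIs in extra-SCN neurons of PND10 and 1.17% and 1.09% at PND30. In mature astrocytes they held 0.684% and 0.669%, then 0.775% and 0.756%, in Avp+ neurons 1.53% and 1.69%, then 1.77% and 1.5%, and in Vip+ neurons 0.976% and 1.1%, then 1% and 1.04%. Differences in these shares between clusters were not tested.

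The stage change of the members was then compared between clusters as an interaction in edgeR with the library as a block, a test added after the data were seen. The rule used the levels of these clusters at PND10 and PND30, so the counts are again a description beside the share of all rows. That share was again not matched for level. Between extra-SCN and Vip+ neurons it was more positive in extra-SCN neurons for 7 of 100 members and more negative for 1, where 0.438% and 0.277% of 13709 rows were. The largest were rank 4, with a difference of 4.05 on the log2 scale, and rank 18 with 3.12. These counts rose without either PND10 library and fell without PND30 replicate 1. Such fits leave 1 library in a stage, and the share of all rows called in them is not given, so the shifts are not read as a result about the members. Between Vip+ and Avp+ neurons 0 members were called in either direction by edgeR, where 0.102% of rows had a higher and 0.17% a lower change in Vip+ neurons, and 14 and 12 members had an unadjusted p under 0.05. Between extra-SCN and Avp+ neurons 0 members and 0% of rows were called in each direction, with 27 and 8 members at an unadjusted p under 0.05. Neither comparison has a share of all rows at an unadjusted p beside these counts, so they are not read as a result about the members. Leaving out a PND30 or PND10 library gave calls among members in these comparisons, again without a share of all rows beside them. No other tool was run on this comparison.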

How the data were processed

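Nuclei of 6 libraries were analysed from the deposited raw UMI counts per matrix row and barcode, which the authors made with Cell Ranger 5.0.1 on mm10 and did not normalize. Clusters are the annotation the authors deposited, made with Seurat 4 after limits on nuclei and removal of doublets. A nucleus was placed in a library by its barcode. Of 22796 annotated nuclei 22790 were placed, 5 had a barcode in both libraries of a stage and 1 in neither. The members and every list and test were chosen with earlier results of these data known.

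UMIs were summed per cluster and library and scaled to CPM. A 2-fold difference was counted on CPM + 5. Intervals at the 95% level are exact Poisson for CPM and Clopper-Pearson for shares (scipy 1.17.1). Shares per nucleus used nuclei of at least 1500 UMIs, thinned without replacement to 1500.

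PND30 was compared with PND10 by edgeR 4.0.16 (glmQLFTest, TMM, filterByExpr, adjusted p under 0.05) in R 4.3.3, after a check on simulated counts. Alternatives were DESeq2 1.42.0, RLE size factors, no filter, the replicate number as a block, and leaving out each library. Named members were ranks 1 to 10, ranks 99 to 101, the 3 members with the largest difference in each direction of a comparison, and the 3 highest in early SCN neurons. Others are said to be named after their values were seen, or illustrate a count. No sequence is given, since the rows carry no names.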

Additional observations from a re-analysis of the deposited data

Results flagged for a closer look

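For 8 members the change from PND10 to PND30 differed between extra-SCN and Vip+ neurons in the edgeR interaction test (n = 2 libraries a stage, library as a block, adjusted p under 0.05). The rule that chose the members used the levels of both clusters at these stages, so these values are a description. Values are the log2 change in extra-SCN neurons minus that in Vip+ neurons. Rank 4 differed by 4.05, rank 18 by 3.12, rank 66 by 2.39, rank 10 by 2.23, rank 22 by 1.79, rank 94 by 1.31 and rank 32 by 1.21. Rank 8 differed by -1.34. Rank 4 was low in extra-SCN neurons at all times, with at most 13.4 CPM. With PND30 replicate 1 left out fewer members were called, and with PND10 replicate 1 left out more were. The share of all rows called in those fits is not given.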

How the results depend on the processing

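Applied to PND30 replicate 1 alone among the PND30 libraries, the rule kept 56 of the 100 members, and leaving out any other library kept 83 to 93. A minimum of 100 CPM kept 63 and equal weights for the libraries kept 60. At a level of 25 CPM, 63 members at GD17.5 and 61 at PND2 counted as present in early SCN neurons. At 100 CPM 18 did in early SCN neurons of PND2, and 32 and 28 in Vip+ neurons of GD17.5 and PND2. Between the early stages 13 members differed over 1.5-fold, 7 of them lower at PND2, and 2 over 3-fold, 2 of them lower. Between the PND30 libraries 11 differed over 1.5-fold, 0 over 3-fold, and 6 over 2-fold after thinning to 1500 UMIs. Shares of all rows at these other levels and folds are not given, so the counts are not read as a result about the members. The median share per Cck+ nucleus was 2.93% at 750 UMIs, 3.07% to 3.2% with a PND30 library left out and 2.07% without the 5 most abundant members, the last added after the data were seen.

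With libraries left out in turn, the members called higher at PND30 numbered 0 to 5 in Avp+, 0 to 18 in Vip+ and 0 to 27 in extra-SCN neurons, and those called lower 0 to 1, 0 to 14 and 0 to 3. A lone library was assumed to vary like the other stage. Calls over all rows in these fits are given above only for extra-SCN neurons, so these ranges are not read as a result about the members. DESeq2 called 2 higher and 1 lower in Avp+, 9 and 7 in Vip+, and 10 and 0 in extra-SCN neurons. Without a filter on low counts edgeR called 19 higher and 3 lower in extra-SCN neurons. Rank 60 in extra-SCN neurons ranged from -1.69 to 0.070 on the log2 scale, and its sign turned without PND10 replicate 1. With the replicate number as a block edgeR called 8 members higher and 2 lower in Avp+ neurons and 20 and 13 in Vip+ neurons, and 0 in extra-SCN neurons. Over all rows, edgeR called 5 higher and 8 lower in Avp+ neurons against 348 and 330 with that block, 109 and 103 by DESeq2, and 33 and 31 without a filter. In Vip+ neurons it called 343 and 483 against 635 and 755 with the block, 147 and 248 by DESeq2, and 536 and 579 without a filter, and in extra-SCN neurons 0 and 1 against 92 and 151 by DESeq2 and 345 and 755 without a filter. Deviations of libraries with the same number correlated at 0.27, 0.08 and -0.02 in Avp+, Vip+ and extra-SCN neurons. Both libraries with number 1 had fewer and deeper nuclei than both with number 2, and the second libraries come from a repeat of preparation and sequencing. Whether the repeats of PND10 and PND30 were run together is not stated, so whether the number pairs them is not settled.

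In the comparisons of stage change, no filter gave 3 higher and 9 lower for Vip+ minus Avp+, 15 and 4 for extra-SCN minus Avp+, and 19 and 8 for extra-SCN minus Vip+ neurons. With libraries left out these were 0 to 4 and 0 to 12, 0 to 11 and 0 to 6, and 2 to 24 and 0 to 11. Shares of all rows called under these settings are not given, so the counts are not read as a result about the members. The cause of these shifts was not tested. The 20 Cck+ nuclei of PND10 replicate 2 limit what can be read there, since 3 UMIs are worth 41.3 CPM.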
